A study of Mus musculus with 5 samples.

Results

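The genes described here are 44 genes of the cell division cycle, measured in single cells from 5 segments of the mouse gut. They were chosen by symbol from the 32285 genes in the feature lists, and all 44 were found. Of them, 20 act in or before S phase, when DNA is copied, and 24 act in G2 or M phase, when the cell prepares for and carries out mitosis. The study made 5 single-cell RNA libraries from the mouse, 1 per segment (duodenum, jejunum, ileum, colon, rectum), from sorted cells that took up no propidium iodide, which stains dead cells. The labels describe each library as epithelial, mesenchymal and immune cells, with no treatment; strain, age, sex and genotype are not given in the labels used here, nor whether the libraries came from the same animals. With 1 library per segment no test between segments was possible, and the tests below compare cell classes or cells within a class over the 5 libraries, so that their p-values measure only the spread between these libraries.

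The intestinal epithelium is renewed from crypts, in which stem cells and their transit-amplifying daughters divide before they differentiate into absorptive, goblet, enteroendocrine or Paneth cells. In cycling cells the genes for DNA replication are induced by E2F factors near the entry into S phase, and many genes for mitosis are induced later by the MuvB complex with B-Myb and FoxM1. E2F proteins bind sequences such as TTTGGCGC, whereas the late genes are known for a cell cycle genes homology region (CHR, TTTGAA and also TTCGAA) and for CCAAT boxes, bound by NF-Y, in their promoters.

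The promoter windows show how far the S and the G2/M members differ in these letters. RefSeq (GRCm38.p6) gave 40 windows, each from 250 bases before to 50 bases after a transcription start, for 38 of the 44 genes; Ccna2, Aurkb, Ccne2, Mcm4, Gins2 and Tpx2 had none. Both strands were searched for these CHR letters, for the E2F sequences TTTGGCGC, and with them TTTCGCGC, and also TTTCCCGC, and finally TTTGCCGC, and for CCAAT, and 6 pairs of matches in the members' windows overlapped. A CHR was present in 17 of 21 G2/M windows (81.0%), in 2 of 19 S windows (10.5%) and in 19.2% of all 32851 windows. An E2F sequence was present in 8 of 19 S windows (42.1%), in 1 of 21 G2/M windows (4.76%), that of Cdk1, and in 2.27% of all windows. CCAAT was more widespread, at 12 of 19 S windows (63.2%), 19 of 21 G2/M windows (90.5%) and 37.4% of all windows. These are counts of letters, with no binding measured in this series.

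The windows below are those of the S and G2/M members with the most unique molecular identifiers (UMIs, 1 for each captured RNA molecule) in crypt-like cells, and of those with the most motifs. Pcna (sliding clamp of the replication fork) lies at chr2:132253131-132253430 on the minus strand and Dut (dUTPase) at chr2:125247265-125247564 on the plus strand. Mcm7 and Mcm6, subunits of the replicative helicase, lie at chr5:138171834-138172133 and chr1:128359656-128359955, both on the minus strand. Ube2c (ubiquitin-conjugating enzyme of the anaphase-promoting complex) lies at chr2:164769679-164769978 on the plus strand. Mki67 (Ki-67, which coats mitotic chromosomes) lies at chr7:135716330-135716629, Top2a (topoisomerase II alpha) at chr11:99024140-99024439 and Cdk1 (the mitotic kinase) at chr10:69352863-69353162, these 3 on the minus strand. Sequences run 5′ to 3′ on the strand of the gene, and capitals mark the searched motifs on either strand.
Pcna: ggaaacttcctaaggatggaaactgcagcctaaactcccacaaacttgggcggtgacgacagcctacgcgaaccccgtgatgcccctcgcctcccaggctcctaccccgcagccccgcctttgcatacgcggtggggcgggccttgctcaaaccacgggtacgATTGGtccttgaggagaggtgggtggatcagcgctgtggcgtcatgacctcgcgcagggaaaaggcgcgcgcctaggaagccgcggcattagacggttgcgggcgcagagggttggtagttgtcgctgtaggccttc
Dut: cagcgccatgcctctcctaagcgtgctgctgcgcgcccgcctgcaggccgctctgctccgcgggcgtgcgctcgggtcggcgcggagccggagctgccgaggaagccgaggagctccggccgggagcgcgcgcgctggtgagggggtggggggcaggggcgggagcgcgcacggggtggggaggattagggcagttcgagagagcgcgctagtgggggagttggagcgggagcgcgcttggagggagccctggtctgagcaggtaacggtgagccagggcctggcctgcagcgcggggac
Mcm7: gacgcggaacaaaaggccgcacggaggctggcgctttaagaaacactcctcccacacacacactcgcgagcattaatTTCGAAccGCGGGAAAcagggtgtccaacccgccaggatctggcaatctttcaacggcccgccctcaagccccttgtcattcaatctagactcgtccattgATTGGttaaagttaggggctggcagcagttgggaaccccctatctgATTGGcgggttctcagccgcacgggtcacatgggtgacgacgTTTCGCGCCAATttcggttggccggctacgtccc
Mcm6: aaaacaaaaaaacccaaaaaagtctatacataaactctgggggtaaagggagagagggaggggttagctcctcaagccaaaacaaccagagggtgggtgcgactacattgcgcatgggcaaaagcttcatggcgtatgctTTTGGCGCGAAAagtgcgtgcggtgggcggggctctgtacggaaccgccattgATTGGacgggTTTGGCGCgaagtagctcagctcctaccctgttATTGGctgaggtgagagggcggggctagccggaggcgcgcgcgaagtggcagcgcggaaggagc
Ube2c: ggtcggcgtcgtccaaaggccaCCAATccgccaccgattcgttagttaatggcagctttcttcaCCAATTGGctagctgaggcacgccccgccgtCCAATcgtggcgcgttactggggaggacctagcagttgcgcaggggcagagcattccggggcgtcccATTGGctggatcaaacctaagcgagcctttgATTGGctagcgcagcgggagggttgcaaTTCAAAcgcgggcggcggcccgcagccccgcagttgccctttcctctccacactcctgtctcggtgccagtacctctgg
Mki67: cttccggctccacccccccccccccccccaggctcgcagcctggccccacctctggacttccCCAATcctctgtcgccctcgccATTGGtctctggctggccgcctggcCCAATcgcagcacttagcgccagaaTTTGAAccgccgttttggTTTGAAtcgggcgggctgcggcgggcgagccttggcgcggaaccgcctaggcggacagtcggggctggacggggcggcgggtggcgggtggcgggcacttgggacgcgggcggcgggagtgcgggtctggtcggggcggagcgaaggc
Top2a: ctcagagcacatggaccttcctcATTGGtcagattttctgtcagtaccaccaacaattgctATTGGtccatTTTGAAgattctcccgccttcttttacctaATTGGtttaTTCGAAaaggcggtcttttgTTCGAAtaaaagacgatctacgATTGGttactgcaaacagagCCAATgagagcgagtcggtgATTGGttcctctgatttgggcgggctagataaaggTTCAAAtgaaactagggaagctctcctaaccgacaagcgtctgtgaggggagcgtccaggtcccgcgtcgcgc
Cdk1: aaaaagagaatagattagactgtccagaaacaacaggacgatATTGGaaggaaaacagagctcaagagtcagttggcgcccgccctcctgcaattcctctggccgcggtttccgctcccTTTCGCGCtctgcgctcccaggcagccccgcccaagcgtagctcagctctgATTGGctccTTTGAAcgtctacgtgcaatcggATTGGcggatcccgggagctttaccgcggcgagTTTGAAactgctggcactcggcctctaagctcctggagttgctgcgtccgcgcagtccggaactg
The windows of Ube2c, Mki67 and Top2a held CHR and CCAAT matches and no E2F match. Top2a had the most, with 4 CHR and 6 CCAAT matches. Among the S members, Mcm6 held 3 E2F matches and no CHR, Mcm7 held 2 E2F matches and 1 CHR, Pcna held 1 CCAAT and Dut held none of the motifs. The Dut window lay wholly inside the annotated gene, as did those of Hells, Cdc6, Cdca3 and Aurka. For these genes the bases before the outermost annotated start were not searched.

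The 5 libraries held 16535 barcodes with between 41953568 and 65546664 UMIs each, and 30 of the 16505 distinct barcode sequences occurred in more than 1 library. After filtering, 11922 cells were kept; 1778 of them had markers of more than 1 of the epithelial, immune and stromal lineages, and results that moved without such cells are given where they occur. Classes were rebuilt from marker genes with the 44 members and the other listed cell cycle genes left out of the clustering; cell cycle genes on neither list stayed in, so the classes are not fully independent of the cycle. Crypt-like cells numbered 1591: 334 in duodenum, 114 in jejunum, 231 in ileum, 436 in colon and 476 in rectum. Small intestinal crypt-like cells formed 1 cluster led by Olfm4, Cps1, Gkn3 and Sfrp5, with 13 of 16 crypt markers raised. The colonic cluster (11 crypt markers, with Sult1a1 and Ces1g among its leading genes) and the rectal cluster (7 markers, led by Wfdc2, Sycn and Thbs4) were separate, with no crypt marker among their 10 leading genes. Any difference between segments is therefore also one between clusters.

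Among the named classes, the summed members were most abundant in crypt-like cells in every library; an unnamed cluster of 20 jejunal cells had 1943 CPM of S members. Summed over the 20 S members, the level in crypt-like cells was 1747 CPM (counts-per-million, the members' UMIs scaled by all UMIs of the class) in duodenum, 1722 in jejunum, 1592 in ileum, 1455 in colon and 1128 in rectum. The 24 G2/M members summed to 3059, 2943, 2640, 2272 and 1232 CPM in the same order. Both sums thus had the same order along the gut, and their exact 95% Poisson intervals, which cover counting error only, were narrow (3031 to 3086 for G2/M in duodenum). A sum over a class cannot tell fewer cycling cells from less RNA of these genes per cell. Crypt-like cells made up 10.5%, 6.23%, 9.41%, 20.3% and 20.8% of the cells kept in duodenum, jejunum, ileum, colon and rectum, and held 69.2%, 48.1%, 50.3%, 63.4% and 63.0% of all member UMIs there.

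**Figure D1:**
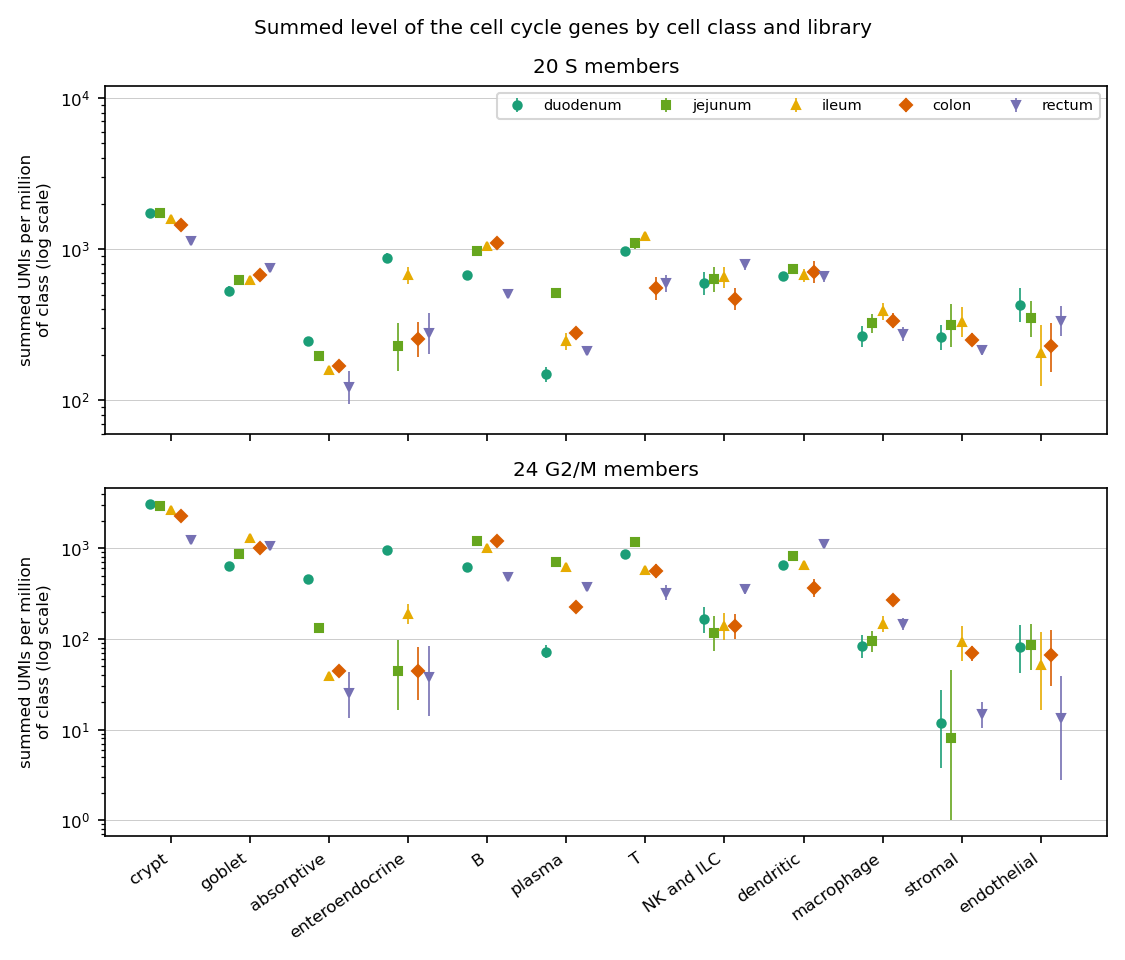
Summed level of the 20 S members (top) and the 24 G2/M members (bottom) in each cell class, as CPM on a log scale; each point is 1 library with at least 10 cells of the class, and bars are exact 95% Poisson intervals, drawn no lower than 1. Within each library crypt-like cells were the highest of the classes drawn in both panels, stromal cells, and absorptive-like cells outside the duodenum, were low for G2/M members, and the rectum was the lowest crypt-like point.

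Other classes held fewer of these RNAs, in different proportions of S to G2/M. Goblet-like cells had summed S levels of 526.2 to 755.6 and G2/M levels of 644.9 to 1308 CPM. B-like cells had 506.3 to 1098 for S and 481.2 to 1219 for G2/M, and T-like cells 550.6 to 1217 and 324.7 to 1159. Stromal cells, joining fibroblast, smooth muscle and related clusters without endothelium, kept an S sum of 215.3 to 330.0 while the G2/M sum was 8.10 to 91.9, from 1 to 113 UMIs per library. Absorptive-like cells had S sums of 123.2 to 247.0 and G2/M sums of 25.0 to 454.8.

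Within crypt-like cells the most abundant S members were Pcna, Dut, Slbp, Tyms, Hells and Mcm6. Pcna measured 206.4, 226.9, 171.3, 175.1 and 152.5 CPM from duodenum to rectum, and Dut, which keeps uracil out of DNA, 197.9, 199.4, 197.8, 145.8 and 120.8. Both were lower in the large than in any small intestinal library except that colonic Pcna (175.1) exceeded that of the ileum. Slbp, which binds histone mRNA, measured 130.9, 125.6, 116.5, 117.8 and 97.1. Tyms, which makes thymidylate, measured 132.3, 117.2, 105.5, 105.5 and 92.3. Hells, a chromatin remodeller, peaked in ileum at 135.5, against 123.9, 127.8, 101.6 and 70.8 in duodenum, jejunum, colon and rectum. Mcm6 was nearly level in the first 4 libraries (112.9, 111.3, 108.4 and 107.6) and lower in rectum (80.0).

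The most abundant G2/M members were Ube2c, Mki67, Top2a, Birc5, Cenpf and Cenpa, and they varied more along the gut. Ube2c measured 395.4, 358.2, 310.3, 271.1 and 133.1 CPM from duodenum to rectum. Mki67 measured 301.3, 310.5, 258.6, 236.2 and 140.9, and Top2a, which untangles sister chromatids, 285.8, 293.6, 235.7, 189.6 and 113.1. In all 3 the small intestinal libraries were above the colon and the colon above the rectum. Birc5 (survivin, of the chromosomal passenger complex) measured 231.0, 205.9, 195.8, 167.7 and 80.6. Cenpa, the centromeric histone, measured 134.2, 141.7, 130.6, 94.7 and 48.4. Cenpf, of the outer kinetochore, peaked in ileum at 177.1, against 134.1, 152.1, 144.7 and 78.6 elsewhere.

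**Figure D2:**
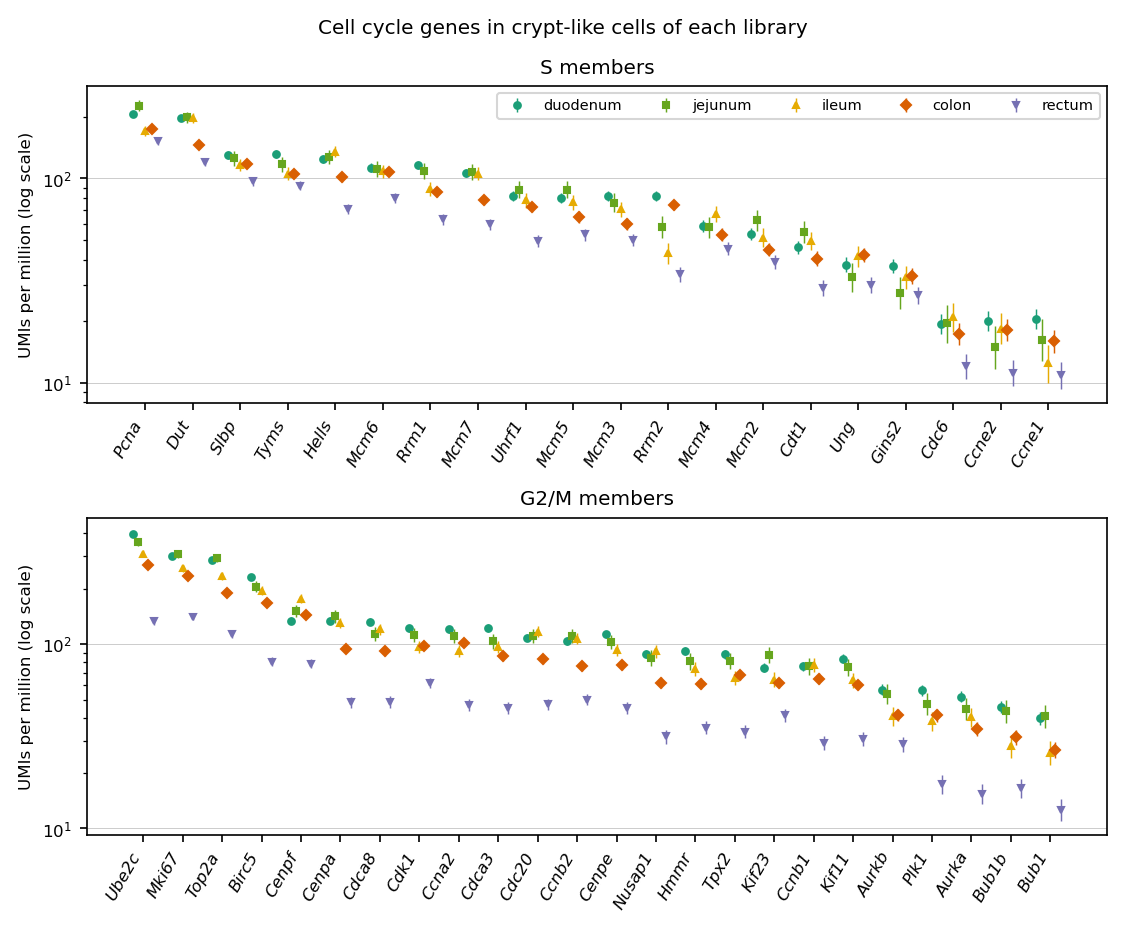
Level of each member in crypt-like cells of the 5 libraries, as CPM on a log scale, with exact 95% Poisson intervals; members are ordered by their UMIs in all 5 libraries. The rectal point was the lowest for all 44 members, and the spread between libraries was wider for G2/M than for most S members.

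All 44 members had their lowest crypt-like level in the rectum, which was also the lowest library for 40.3% of the 12235 genes with at least 50 UMIs in these cells. The duodenal level exceeded the rectal level by a median of 2.62-fold over the G2/M members, from 1.71-fold for Cenpf to 3.37-fold for the spindle pole kinase Aurka. For the S members the median was 1.59-fold, from 1.25-fold for the uracil glycosylase Ung to 2.40-fold for Rrm2, a subunit of ribonucleotide reductase. Aurka measured 51.9, 44.5, 40.1, 34.7 and 15.4 CPM from duodenum to rectum, and Ung 37.9, 33.0, 41.6, 42.2 and 30.2. Aurka was lower at each step along the gut, whereas Ung was highest in the colon. The ratio of summed S to summed G2/M UMIs was 0.571, 0.585, 0.603, 0.641 and 0.916, so the rectal crypt-like cells had the most S relative to G2/M RNA. With no replicate library per segment these are values of 5 libraries.

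Fewer members differed in the grouping of small against large intestine. A rule of size asked that the lowest library of one side be at least 2-fold above the highest of the other. In crypt-like cells 0 of 44 members met it in either direction; of 12235 genes, 2.41% were higher in small and 3.80% in large intestine. Without a minimum fold, 16 of 24 G2/M and 12 of 20 S members had all 3 small intestinal libraries above both large intestinal ones, against 30.4% of genes. The median log2 ratio of the mean of the small to the mean of the large intestinal libraries was 0.73 for G2/M and 0.36 for S members, and 0.09 over all genes.

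Goblet-like cells did not follow the order of the crypt-like cells. No member met the rule there (0 of 44, against 2.21% of genes for the small intestine and 2.77% for the large), and 6 S and 3 G2/M members had both large intestinal libraries above the small intestinal ones, against 30.6% of genes. Pcna in goblet-like cells was lowest in duodenum and highest in rectum, at 68.2, 92.6, 84.7, 107.2 and 126.9 CPM. The clusters differed between segments here too, and the duodenal and jejunal goblet-like classes held only 47 and 36 cells. In B-like cells 0 of 44 members met the rule (1.28% of genes for the small intestine, 0.114% for the large). In stromal cells only 7 S members and no G2/M member reached 50 UMIs, and 0 of the 7 met it (0.513% and 0.178% of genes).

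In T-like cells 32 members reached 50 UMIs and 5 were higher in the small intestine by this rule, against 2.18% of genes, with 0 higher in the large intestine (0.329%). They were Mki67, Nusap1, Cdk1, Birc5 and the helicase subunit Mcm5. The G2/M UMIs of this class lay in few cells. The 3 cells with the most held 578 of 1305 in duodenum, 401 of 580 in jejunum and 205 of 347 in ileum. In colon and rectum they held 109 of 140 and 64 of 119. Mki67 in T-like cells measured 92.9, 119.9, 59.8, 28.1 and 13.6 CPM from duodenum to rectum, from 140, 60, 36, 7 and 5 UMIs. The count fell to 0 when cells with markers of more than 1 lineage were removed. A cluster led by Gzma, Gzmb and Ccl5 held 178 of 320 duodenal and 57 of 101 jejunal T-like cells but 1 of 66 colonic and 0 of 76 rectal ones; its part in the result was not tested.

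Crypt-like and goblet-like cells of the same library were compared for a secretory class that still contained cycling cells. The colonic goblet-like cluster had 5 goblet markers raised, 2 of them among its 10 leading genes, but also 7 crypt markers. The rectal one had 9 goblet and 5 crypt markers raised, so these classes were not free of crypt markers. Over the libraries together, members were about 2-fold higher in crypt-like cells, with similar medians for S and G2/M. The difference was uneven along the gut. Summed G2/M levels in duodenum were 3059 CPM in crypt-like and 644.9 in goblet-like cells. In rectum they were 1232 CPM in crypt-like cells and 1065 in the main goblet-like cluster. By edgeR with library as a term, 18 of 20 S and all 24 G2/M members were higher in crypt-like cells, against 17.7% of 12639 genes. The median log2 fold change was 1.15 for S and 1.05 for G2/M members and 0.02 over all genes. Among the S members Hells had the largest difference, with goblet-like levels of 23.3, 35.8, 39.2, 38.9 and 38.5 CPM from duodenum to rectum, all below those given for crypt-like cells (log2 fold change 1.43 ± 0.17, SE, adjusted p = 0.00159, higher in 5 of 5 libraries). Among the G2/M members Kif23, a kinesin of the cytokinetic midzone, had the largest difference, with crypt-like levels of 74.8, 87.4, 64.3, 61.7 and 41.1 against 20.1, 17.6, 22.5, 26.6 and 28.5 in goblet-like cells (1.24 ± 0.20, adjusted p = 0.00455). Hmmr, a spindle assembly factor, had the smallest, with 92.3, 80.7, 73.8, 61.2 and 35.3 against 27.3, 23.7, 43.9, 30.8 and 34.3 (0.81 ± 0.23, adjusted p = 0.0284). The rectal values of Hmmr nearly coincided.

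Slbp and the cyclin Ccne2 did not pass the test. Slbp was 81.8, 75.02, 74.2, 89.8 and 96.4 CPM in goblet-like cells, and the rectal value was close to the 97.1 of crypt-like cells (log2 fold change 0.29 ± 0.11, adjusted p = 0.0673). Ccne2 had a log2 fold change of 0.74 ± 0.27 with adjusted p = 0.0711 (4 of 5 libraries in that direction). The count of G2/M members fell from 24 to 7 without the jejunum, to 15 without the duodenum, to 14 without the colon and to 16 without the ileum, while the S count stayed between 15 and 20.

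Other cell cycle genes, taken from lists chosen by function, gave a more divided picture in this comparison. All 21 genes for replication origins, polymerases and the fork were higher in crypt-like cells, as were 26 of 31 further mitotic genes and 8 of 15 E2F, RB and DREAM factors. The CDK inhibitor Cdkn1a was lower in crypt-like than in goblet-like cells (log2 fold change -1.36 ± 0.26), as was the G1 cyclin Ccnd3 (-0.81 ± 0.10). Among p53-related genes, Trp53inp1 (-2.72 ± 0.40), Gadd45a (-0.86 ± 0.18) and Mdm2 (-0.76 ± 0.12) were lower, and Brca1, Chek1 and Bax were among those higher. In total 73 of 99 tested were higher, against 17.7% of all genes, and 5 were lower, against 18.2%.

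Absorptive-like cells differed far more from crypt-like cells. All 20 S and all 24 G2/M members were higher in crypt-like cells, against 26.8% of genes, with median log2 fold changes of 3.97 and 4.31 (-0.01 over all genes). The helicase subunit Mcm3 had the largest difference (5.62 ± 0.54, adjusted p = 0.000283), with 2.26, 0.364, 0.187, 1.95 and 1.92 CPM in absorptive-like cells. The kinetochore gene Cenpf led the G2/M members (5.28 ± 0.79, adjusted p = 0.00144), with 15.5, 3.22, 0.468, 1.03 and 1.92 CPM. Pcna stood apart: it measured 110.9, 111.2, 75.2, 49.2 and 48.1 CPM in absorptive-like cells, made up 46.8% of their S member UMIs, and had the smallest difference (0.89 ± 0.24, adjusted p = 0.0163). Slbp, at 45.4, 42.2, 48.0, 40.6 and 23.1, made up another 21.5% (1.13 ± 0.20).

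Most of the G2/M RNA in absorptive-like cells came from 1 cluster, led by Reg1, Rbp7 and Car4, in duodenum (302 cells) and jejunum (140 cells). Its G2/M members summed to 906.3 and 508.4 CPM, against 28.0 in the other large duodenal and 19.3 in the other large jejunal absorptive-like cluster. The count of G2/M members called was 0 with at most 10% mitochondrial UMIs (16 S members were called there). With separate clustering of the libraries it was 9, with 6 S members. In both settings a library lacked crypt-like cells, so these counts rest on fewer libraries than the main ones. The part of the lost library was not tested.

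B-like cells held the members in another pattern. By edgeR 14 of 20 S and 23 of 24 G2/M members were higher in crypt-like cells, against 40.2% of 12428 genes. The median log2 fold change was 0.86 for S and 1.51 for G2/M members, and 0.13 over all genes. Cdca3, which promotes degradation of the mitotic inhibitor Wee1, had the largest difference (2.43 ± 0.25, adjusted p = 5.058e-05), with 9.90, 25.8, 19.97, 17.6 and 5.41 CPM in B-like cells from duodenum to rectum. Tyms led the S members (2.27 ± 0.27, adjusted p = 0.000115), with 13.8, 25.4, 31.5, 27.0 and 8.85. Both were lowest in duodenum and rectum among B-like cells. The 6 S members that did not pass the test were Slbp (-0.23 ± 0.14), Cdt1 (-0.06 ± 0.18), Mcm3 (0.29 ± 0.20), Mcm4 (0.34 ± 0.15), Dut (0.35 ± 0.23) and Rrm2 (0.75 ± 0.40).

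Cenpa was the only member that passed the test as lower in crypt-like than in B-like cells, as 33.6% of genes did. It measured 185.7, 153.3, 166.7, 150.5 and 169.1 CPM in B-like cells, against 134.2, 141.7, 130.6, 94.7 and 48.4 in crypt-like cells (log2 fold change -0.86 ± 0.22, adjusted p = 0.00796, lower in 5 of 5 libraries). The B-like values lay above every crypt-like value, and Cenpa supplied 19.4% of the G2/M UMIs of B-like cells. A cluster led by Rgs13, Mef2b and Mybl1, genes of germinal centre B cells, held 31, 38, 73, 29 and 21 of the B-like cells. Outside it Cenpa measured 180.7, 138.8, 162.8, 163.4 and 164.9 CPM, and Mki67 only 14.9, 30.03, 27.0, 44.1 and 0.539. Inside it Cenpa measured 238.2, 213.8, 183.7, 103.9 and 212.0, below the level outside in colon only, and Mki67 measured 438.0, 633.3, 575.0, 588.7 and 351.4. Cenpa and Slbp overlap no other gene in the RefSeq table, whereas Mcm7, Gins2, Ung, Ccne2, Ccna2, Aurka, Nusap1 and Cdc20 each overlap a protein-coding neighbour; whether counting used strand is not given in the sources used here.

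The Rgs13 cluster was 2.42%, 6.96%, 7.44%, 6.71% and 3.93% of the B-like cells from duodenum to rectum and held 48.4%, 72.2%, 66.8%, 69.9% and 59.7% of their G2/M UMIs. Its ratio of summed S to G2/M UMIs was 0.650, 0.434, 0.729, 0.774 and 0.526, against 1.504, 1.76, 1.64, 1.20 and 1.83 in the remaining B-like cells. Its summed G2/M level, 3258 to 4522 CPM, was above that of crypt-like cells in every library. Few cells carried much of this RNA: 50% of all B-like G2/M UMIs lay in 5, 7, 13, 4 and 3 cells from duodenum to rectum.

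In T-like cells the members were mostly below their crypt-like level: 17 of 20 S and 23 of 24 G2/M members were higher in crypt-like cells, against 35.2% of 12169 genes. The medians were 1.07 for S and 2.42 for G2/M members in favour of crypt-like cells, and 0.17 over all genes. Cyclin B1 (Ccnb1) had the largest difference (3.47 ± 0.26, adjusted p = 1.842e-06), with 13, 2, 4, 2 and 1 UMIs in the T-like cells. Gins2, of the helicase-activating GINS complex, led the S members (2.42 ± 0.35, adjusted p = 0.000179), with 12, 2, 6, 0 and 2 UMIs. Cenpa (-0.42 ± 0.18, adjusted p = 0.0568) and Slbp (-0.30 ± 0.17, adjusted p = 0.141) did not pass and had the opposite sign; Cenpa in T-like cells measured 215.0, 191.9, 128.0, 128.6 and 101.0 CPM. Mcm3 (0.66 ± 0.32) and Mcm4 (0.20 ± 0.19) did not pass either.

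In stromal cells the median difference was larger for the G2/M than for the S members. All 20 S and 24 G2/M members were higher in crypt-like cells, against 29.8% of 13351 genes, with medians of 3.44 and 5.83 (0.01 over all genes). Hmmr was represented by 1 UMI in all stromal cells (8.05 ± 0.47, adjusted p = 1.503e-06), and the G2/M member with the smallest difference, the checkpoint kinase Bub1b, by 5 UMIs (4.79 ± 0.43, adjusted p = 1.949e-05). Folds this large rest on few stromal molecules. Uhrf1, which couples DNA methylation to replication, led the S members (6.11 ± 0.38, adjusted p = 2.137e-06), with 1, 0, 0, 3 and 1 UMIs. Slbp had the smallest difference (1.43 ± 0.25, adjusted p = 0.00107), with 37.4, 32.4, 91.9, 47.7 and 43.1 CPM in stromal cells. Dut, Slbp and Pcna together were the 3 most abundant S members there, with 240, 234 and 221 UMIs, whereas Mki67 led the G2/M members with 34.

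**Figure D3:**
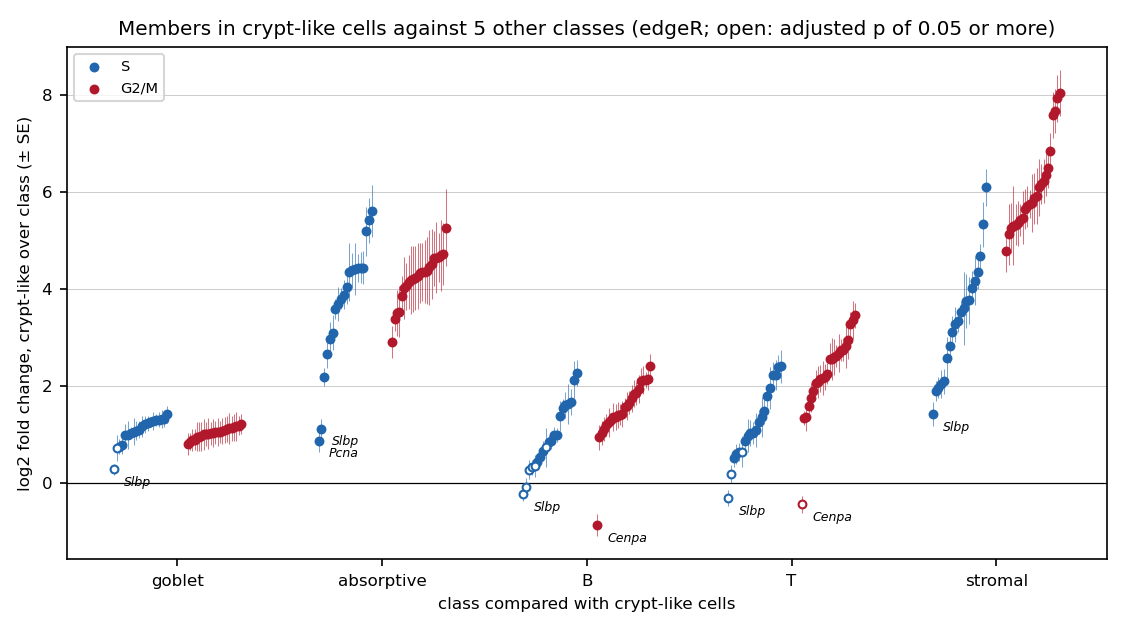
Log2 fold change of each member in crypt-like cells over 5 other classes, from edgeR with library as a term; points are members sorted by value, bars are ± SE, and open points have an adjusted p of 0.05 or more. The G2/M median lies above the S median for T-like and stromal cells, though single members overlap, and Cenpa lies below 0 for B-like and T-like cells.

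The balance of S to G2/M RNA was compared between classes within libraries as the log2 ratio of the 2 sums. In the crypt-like minus goblet-like comparison the mean difference was -0.03 ± 0.39 (SD, n = 5 libraries; exact two-sided sign-flip permutation p = 0.875). Against B-like cells it was -0.57 ± 0.29 and against T-like cells -1.02 ± 0.47, lower in crypt-like cells in 5 of 5 libraries each (exact permutation p = 0.0625, adjusted over 5 comparisons 0.156). With 5 libraries 0.0625 is the smallest p this test can give, so these comparisons could not pass 0.05. Against absorptive-like cells the difference was -1.80 ± 1.19, lower in 4 of 5 libraries (exact permutation p = 0.125, adjusted 0.208). Its sign turned with at most 10% mitochondrial UMIs (0.355), where a library lacked crypt-like cells and fewer libraries entered the mean. Against stromal cells it was -3.03 ± 0.84 over the 3 libraries with enough G2/M UMIs (exact permutation p = 0.25, the smallest possible with 3).

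To see which members go with Mki67 inside a class, each cell with a Mki67 UMI was paired with a cell of the same class and library without one and of the nearest total UMIs. A cell without a Mki67 UMI may still be cycling, and a single UMI may be stray RNA. In macrophage-like cells 5.21%, 7.69%, 8.54%, 6.60% and 14.9% of cells had a Mki67 UMI from duodenum to rectum, at median depths of 5945, 6860, 5429, 8128 and 12954 UMIs. The share was 87.4%, 82.5%, 64.9%, 65.6% and 42.9% in crypt-like cells and 25.5%, 33.3%, 38.3%, 34.7% and 25.2% in goblet-like cells, at median depths of 24303 to 45335 UMIs. In B-like cells it was 2.03%, 5.68%, 5.91%, 5.32% and 1.31%, below the macrophage-like share in every library at median depths of 2789 to 3562 UMIs, so this share is not read as expression; the 26 duodenal B-like cells with Mki67 held 248 of its UMIs, and the 5 macrophage-like ones 5. With at least 2 Mki67 UMIs required, an alternative added after seeing the data, 23 G2/M and 8 S members were higher in crypt-like cells. In goblet-like cells 23 and 18 were higher (ileum, colon and rectum only, since duodenum and jejunum had 9 and 8 pairs). In B-like cells 22 of 23 and 17 of 18 tested were higher. The share of all genes called under this requirement is not given here, so these counts are not set against it. Mki67 itself was left out, leaving 23 G2/M members. In crypt-like cells there were 42, 20, 81, 150 and 204 pairs from duodenum to rectum. Median UMIs with and without Mki67 were close in jejunum (16485 and 16184) but apart in ileum (25518 and 9653) and colon (27489 and 17863). In the first 4 libraries every crypt-like cell without a Mki67 UMI was used, and those with one were left out in part. In duodenum and jejunum 87.4% and 82.5% of the cells had a Mki67 UMI, but only 42 and 20 of these were paired.

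In crypt-like cells all 23 G2/M members were higher in the cells with Mki67, and 8 of 20 S members were, against 4.05% of 10260 genes. The median log2 fold change was 3.75 for G2/M and 0.56 for S members, and -0.04 over all genes. Summed G2/M CPM were 1961, 2220, 1888, 1714 and 2020 with Mki67 and 386.4, 244.1, 281.1, 148.4 and 77.8 without. Summed S levels were 2088, 1783, 1765, 1881 and 1625 with and 1928, 2006, 1315, 897.6 and 609.7 without. The paired cells with Mki67 thus had a like S sum in every segment. The paired cells without it had less S RNA in colon and rectum than in the small intestine. The paired cells need not stand for all cells with Mki67. In duodenum their G2/M sum was 1961 CPM with Mki67 left out, against 3059 for the whole crypt-like class with Mki67 counted. The S ratio with over without was 1.08, 0.889, 1.34, 2.10 and 2.67.

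Hmmr had the largest difference in crypt-like cells, with 44.8, 49.4, 59.5, 46.8 and 66.9 CPM with Mki67 and 3.56, 0, 0, 1.93 and 0.908 without (5.44 ± 0.32, adjusted p = 1.519e-07). Kif23 had the smallest among the G2/M members, with 49.0, 74.1, 50.3, 47.6 and 68.7 against 13.04, 16.1, 16.9, 8.51 and 10.6 (2.21 ± 0.18, adjusted p = 2.691e-06). In both, every value with Mki67 was above every value without. Rrm2 led the S members, with 67.2, 59.3, 50.8, 82.6 and 61.9 against 34.4, 37.6, 6.43, 18.2 and 3.94 (2.29 ± 0.34, adjusted p = 0.000754). The other S members called were Mcm5, Tyms, Ccne2, Gins2, Rrm1, Uhrf1 and the licensing factor Cdc6. Ung did not differ in 1 direction: 54.4, 19.8, 43.6, 64.3 and 37.0 with Mki67 against 86.5, 51.0, 53.01, 53.7 and 23.2 without (-0.09 ± 0.20, adjusted p = 0.877). The S count was 3 without the colon, 5 without the rectum and 12 without the jejunum, and 0 without the library term. It was 2 with at most 10% mitochondrial UMIs, where a library lacked crypt-like cells, and 5 against all cells without Mki67. It was 16 with no gene filter and 18 at a coarser clustering, so the number of S members called depended on these settings. The G2/M count was at least 21 in each of them.

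Mki67-positive crypt-like cells also differed in other genes, of which 2.21% were lower. By the rule of largest change in every library, Aspm, Ckap2l, Kif4, Iqgap3 and Anln, all of spindle or cytokinesis, were among the higher genes (log2 fold changes 4.99 to 6.54). Lrrc26 (-1.84), Cyp2c68 (-1.60) and the actin regulator Gsn (-1.38) led the lower ones. Of 9 stem cell genes, Gkn3 (-1.24 ± 0.26) and Olfm4 (-0.64 ± 0.12) were lower with Mki67, each in 4 of 5 libraries, though not with coarser clusters, and the other 7, Lgr5 among them, did not pass. Of 32 further mitotic genes 31 were tested and 29 were higher, and of 21 genes for origins, polymerases and the fork 13 were higher.

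In goblet-like cells both S and G2/M members were higher with Mki67. With 12, 12, 103, 140 and 61 pairs, all 23 G2/M and 19 of 20 S members were higher with Mki67, against 11.4% of 10589 genes, with medians of 5.02 and 1.99 (-0.04 over all genes). Cenpf led, with 79.7, 72.9, 137.9, 110.7 and 181.8 CPM with Mki67 and 0, 4.04, 1.01, 0.915 and 1.76 without (6.42 ± 0.27, adjusted p = 3.272e-08). Cdk1 had the smallest difference of the G2/M members, with 53.9, 57.8, 119.2, 66.2 and 114.4 against 4.91, 2.02, 3.04, 3.43 and 9.41 (4.08 ± 0.22, adjusted p = 1.072e-07). Rrm2 again led the S members, with 77.4, 16.4, 46.7, 44.1 and 68.3 against 0, 2.02, 1.69, 2.74 and 6.47 (3.84 ± 0.26, adjusted p = 6.785e-07). Slbp was only slightly higher (0.38 ± 0.12, adjusted p = 0.0423), and Ung did not pass (0.43 ± 0.29, adjusted p = 0.306). Median UMIs with and without were 68427 and 39824 in jejunum and 50659 and 30405 in colon, and close in the other libraries. In jejunum the 5 general immune markers summed to 237.7 CPM with Mki67 and 8.08 without, and the 5 stromal ones, of which 1 was detected on each side, to 211.3 and 2.02; their part in the result was not tested.

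All 9 goblet maturation genes were lower in goblet-like cells with Mki67, against 12.2% of genes. Zg16 (-2.34 ± 0.15), Clca1 (-1.99 ± 0.14) and Fcgbp (-1.59 ± 0.17), products of mature goblet cells, led, and the mucin Muc2 was at -1.45 ± 0.15. The transcription factors Atoh1 (-0.60 ± 0.16) and Spdef (-0.56 ± 0.18) had the smallest differences, and Spdef was lower in only 3 of 5 libraries. Of 9 stem cell genes 4 were higher, namely Olfm4 (2.62 ± 0.74, higher in 3 of 5 libraries), Ascl2 (1.44 ± 0.33), Axin2 (1.26 ± 0.27) and Smoc2 (1.11 ± 0.23). Of the CDK inhibitors, Cdkn1a (-1.14 ± 0.21) and Cdkn2b (-1.21 ± 0.33) were lower and Cdkn2c (2.94 ± 0.39) was higher.

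In B-like cells 4 libraries had at least 10 pairs: 26 in duodenum, 31 in jejunum, 58 in ileum and 23 in colon. All 19 S members tested and 22 of 23 G2/M members were higher with Mki67, against 16.4% of 5718 genes. The median log2 fold change was 2.33 for S members and 5.31 for G2/M members with genes absent on 1 side at their bound (-0.01 over all genes). Cyclin A2 (Ccna2) had 65, 85, 127 and 51 UMIs in the cells with Mki67 and 0 in those without, at least 5.90 higher on the log2 scale with a floor of 3 UMIs over the group. Hmmr, Ccnb2, Cdca3, Plk1, Aurka and Ccne1 were also at 0 without Mki67. Of the S members with UMIs on both sides, Rrm2 had the largest difference, with 128.4, 216.9, 237.6 and 236.9 CPM against 0, 3.42, 1.94 and 23.0 (5.11 ± 0.37, adjusted p = 3.128e-13), and Ung the smallest, with 61.9, 34.2, 43.9 and 31.4 against 13.9, 17.1, 13.6 and 40.2 (0.98 ± 0.36, adjusted p = 0.0310).

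Cenpa was the exception in B-like cells, at 199.5, 209.3, 145.3 and 145.5 CPM with Mki67 and 138.7, 116.2, 168.9 and 149.2 without (0.05 ± 0.18, adjusted p = 0.868, higher in 2 of 4 libraries). In crypt-like and goblet-like cells Cenpa rose with Mki67, by log2 fold changes of 3.38 ± 0.31 and 4.98 ± 0.23; the difference between classes was not tested. Of 10 germinal centre genes 9 were higher in B-like cells with Mki67, led by Gcsam (3.12 ± 0.35) and Mybl1 (2.48 ± 0.36). Of 8 genes of resting B cells 7 were lower, led by Ighd (-2.61 ± 0.18), against 17.5% of genes. Markers of epithelium moved with this comparison: the 6 general ones summed to 80.3, 53.3, 86.7 and 71.3 CPM with Mki67 and 129.5, 47.9, 161.1 and 269.7 without, from duodenum to colon, with all 6 detected on the side with Mki67. They were thus higher without Mki67 in 3 of 4 libraries and lower in jejunum. Goblet cell markers summed to 194.8 against 491.2 CPM in ileum, and Car1, of colonic absorptive cells, measured 234 against 1021 CPM in colon. Their part in the result was not tested. The CDK inhibitor Cdkn1b (-1.54 ± 0.24) and the cyclin Ccnd2 (-1.59 ± 0.18) were lower as well. T-like and stromal cells had too few cells with a Mki67 UMI for this comparison.

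**Figure D4:**
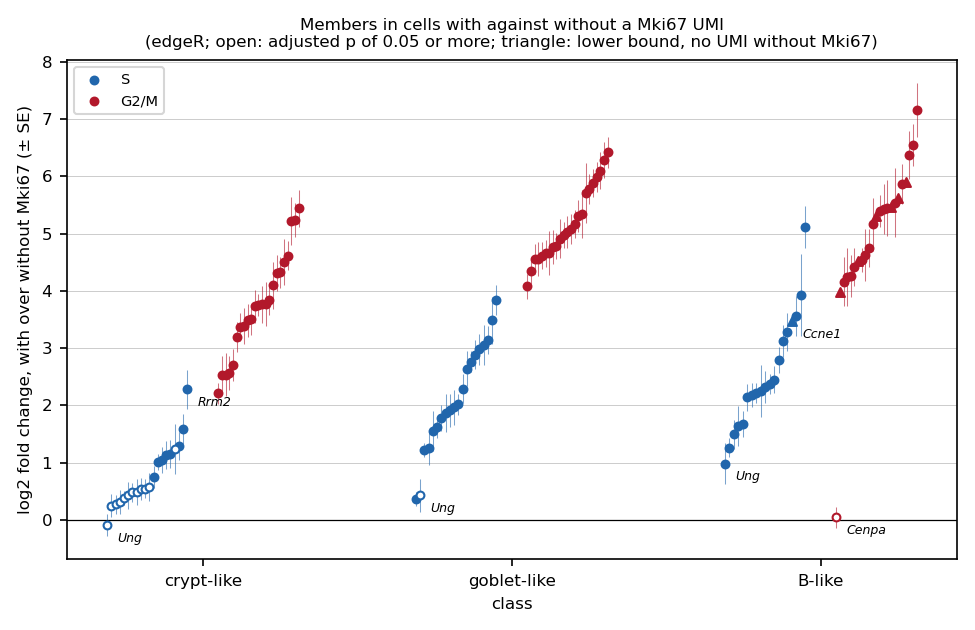
Log2 fold change of each member in cells with over cells without a Mki67 UMI, paired by total UMIs within class and library; bars are ± SE from edgeR, open points have an adjusted p of 0.05 or more, and triangles are lower bounds for genes with no UMI in the cells without Mki67. Most S members lie lower than the G2/M members in all 3 classes, and Cenpa lies near 0 in B-like cells.

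The share of cells with several members detected was compared at an equal depth of 2000 UMIs per cell. At least 3 S members were detected in 51.7%, 47.3%, 49.5%, 39.2% and 27.4% of crypt-like cells from duodenum to rectum, and at least 3 G2/M members in 62.5%, 51.8%, 46.6%, 40.6% and 18.5%. Exact 95% intervals for G2/M were 57.0% to 67.8% in duodenum and 15.1% to 22.4% in rectum. Of these cells, 11, 2, 27, 25 and 23 were left out as shallower, and 28, 6, 11, 25 and 21 cells sat exactly at 3 G2/M members. Without thinning the G2/M shares were 94.9% in duodenum and 49.6% in rectum, with median depths of 45335 and 33775 UMIs. Goblet-like shares for G2/M were 17.0%, 14.3%, 21.8%, 19.3% and 14.97%. In macrophage-like cells, a class that should hold few dividing cells, they were 0% in the small intestine and 1.04% and 1.01% in colon and rectum, at median depths of 6239, 7201, 6665, 8565 and 13132 UMIs before thinning. Plasma-like and absorptive-like cells were chosen as such classes too. From duodenum to rectum the plasma-like shares were 0%, 6.58%, 3.23%, 3.41% and 8.09%. The absorptive-like ones were 5.89%, 1.645%, 0.198%, 0.398% and 0%. B-like cells gave 1.42%, 3.85%, 3.92%, 4.08% and 0.600%, and stromal cells 0% except 0.568% in colon.

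**Figure D5:**
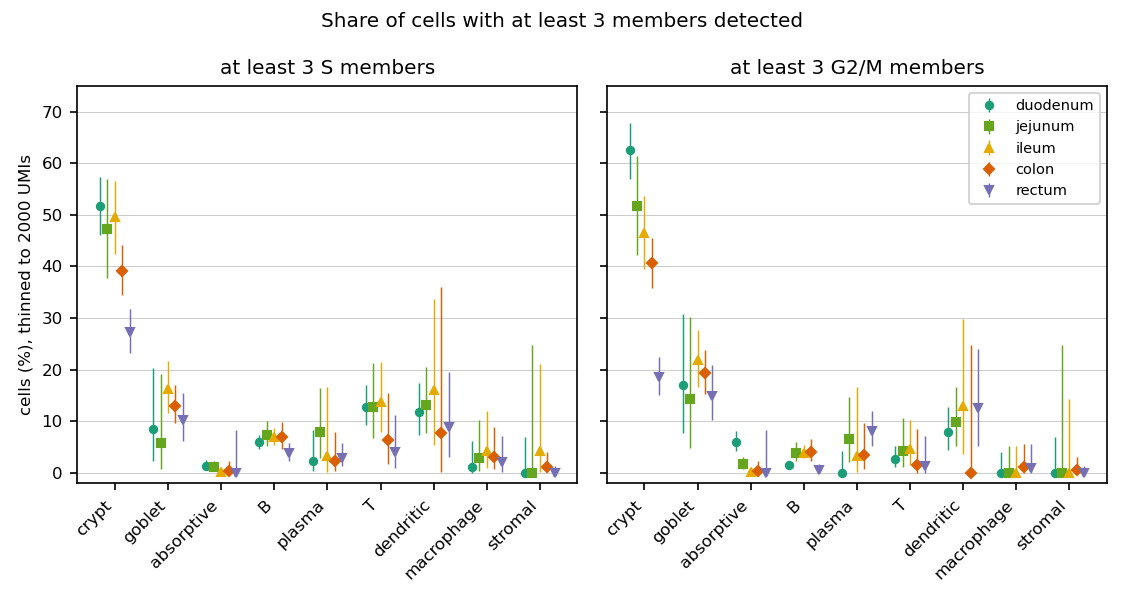
Percentage of cells with at least 3 S members (left) or at least 3 G2/M members (right) detected after thinning each cell to 2000 UMIs, by class and library, with exact 95% binomial intervals. Within each library crypt-like cells were the highest of the classes drawn, and their G2/M share went from 62.5% in duodenum to 18.5% in rectum.

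The members' UMIs were spread unevenly over cells. In crypt-like cells 50% of all G2/M UMIs lay in 65, 18, 28, 48 and 25 cells from duodenum to rectum, which is 19.5%, 15.8%, 12.1%, 11.0% and 5.25% of them. For S UMIs the shares were broader, at 23.4%, 21.9%, 14.7%, 15.6% and 13.03% of cells. In some classes single cells carried much of the level. In colonic T-like cells 1 cell held 103 of 140 G2/M UMIs, and in colonic stromal cells 1 cell held 60 of 113. In duodenum a few cells did so as well, with 50% of the goblet-like G2/M UMIs in 2 of 47 cells and 636 of 717 enteroendocrine-like G2/M UMIs in 3 of 33 cells.

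Across crypt-like cells thinned to 2000 UMIs, summed S and summed G2/M UMIs were log-transformed and correlated. The Pearson correlation was -0.28 in duodenum, -0.20 in jejunum, -0.08 in ileum, 0.07 in colon and 0.28 in rectum (323, 112, 204, 411 and 453 cells). Pairs of members were correlated over 1503 crypt-like cells on log-transformed counts, after the mean of each library was removed. The median was 0.14 within G2/M, 0.07 within S and -0.02 between S and G2/M members. Ube2c with Cenpf (0.44) and Mki67 with Top2a (0.39) were the highest pairs, and Ung with Ube2c (-0.13) the lowest. All of these are weak, come from sparse counts and share libraries, and are given as a description.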

How the data were processed

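The 5 libraries were made with 10x Genomics Chromium chemistry and sequenced on an Illumina HiSeq instrument, per the labels' protocols. The deposited matrices hold raw counts of UMIs per gene and cell barcode; mm10, Seurat and Cell Ranger 4.0.0 are named in the submitters' processing notes, whereas cellranger 7.2.0 appears in the matrix headers. Totals were 41953568 to 65546664 UMIs per library, 250629913 in all, of which 210176116 lay in the cells kept; intervals cover counting error only.

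A barcode passed (12255 of 16535 did) if it had 300 genes or more and no more than 20% of its UMIs were mitochondrial, and 333 were removed as doublets, the highest Scrublet scores at 0.8% per 1000 barcodes, since the caller's own threshold marked 27. Cells were clustered with scanpy 1.11.5 and leidenalg 0.10.2 (2000 variable genes, 30 components, 15 neighbours, resolution 1.0), with all listed cell cycle genes left out, and named from at least 3 markers. Levels are UMIs summed over a class, as counts-per-million (CPM) of all its UMIs. Class sums and Mki67 pairs were tested with edgeR 4.0.16 (TMM, filterByExpr, quasi-likelihood test, library as a term, Benjamini-Hochberg adjustment over all genes tested, threshold 0.05) in R 4.3.3; a library needed 20 cells per class (10 for stromal cells) or 10 pairs. These scripts were tested on simulated data. The balance of S to G2/M was tested by exact sign-flip permutation. Promoter windows are RefSeq's.

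The members, marker and gene lists were chosen with earlier results of these data known. Values by library are given for the 6 members with the most crypt-like UMIs in each group, for the largest and smallest difference per comparison and for members outside their group's direction, and other genes are named by the largest changes. Alternatives covered cell filters, doublets, clustering, normalization (DESeq2 1.42.0 among them), gene filters, pairing, thinning and leaving out each library. Some genes that these rules would name are not reported here.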

Additional observations from a re-analysis of the deposited data

How the results depend on the processing

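Of the values recomputed for single members, 6435 kept their side of the threshold, 75 newly passed and 207 no longer passed. A change of sign was counted only where the main or the alternative value passed, and 0 were found. Causes were not tested. G2/M members called above goblet-like cells ranged from 7 to 24 when 1 library was left out. Against absorptive-like cells, clustering each library on its own gave 6 S and 9 G2/M members, and at most 10% mitochondrial UMIs gave 0 G2/M members. S members higher with Mki67 in crypt-like cells numbered 16 with no gene filter, 0 without the library term, 5 against all cells without Mki67, 2 with at most 10% mitochondrial UMIs, 18 at resolution 0.5 and 3 to 12 with 1 library left out. The duodenum over rectum fold of summed S members was 1.45 with every barcode, 1.58 without lineage-mixed cells, 1.45 at resolution 2.0, 1.19 at resolution 0.5, 1.67 with cell cycle genes kept in the clustering, 1.74 as a mean over cells and 1.41 with TMM factors; for G2/M it was 2.54, 2.57, 1.95, 2.10, 2.40, 2.94 and 2.25, and 2.16 with at least 1000 genes. T-like members meeting the size rule numbered 2 with every barcode, 2 with at most 10% mitochondrial UMIs, 1 with at least 1000 genes, 0 without lineage-mixed cells, 2 clustered alone, 8 at 1.5-fold, 0 at 4-fold and 1 with at least 200 UMIs. The crypt-like minus goblet-like log2 ratio of S to G2/M changed sign to 0.092 (10% mitochondrial limit), 0.087 (1000 genes), 0.053 (resolution 2.0), 0.075 (clustered alone), 0.124 (cell cycle genes kept), 0.092 (median over members) and 0.025 (most abundant members left out), and ranged from -0.133 to 0.087 with 1 library left out, an alternative added after seeing the data, as were a limit of 1.5-fold on the depth of Mki67 pairs and a minimum of 2 Mki67 UMIs; the ratio against absorptive-like cells changed sign to 0.355 with the 10% limit. The duodenal crypt-like S share was 44.7% with every barcode, 67.7% with the 10% limit, 32.7% at resolution 0.5, 58.6% clustered alone, 25.4% thinned to 1000 UMIs, 69.7% for at least 2 members and 97.0% without thinning; the rectal S share was 35.9% with the 10% limit, 32.5% at resolution 2.0, 45.2% clustered alone, 13.3% thinned to 1000, 39.3% for 2 members and 85.9% without thinning. The duodenal G2/M share was 48.7% at resolution 0.5, 40.4% thinned to 1000, 72.5% for 2 members and 94.9% without thinning; the rectal one was 27.1% with the 10% limit, 34.9% clustered alone, 12.3%, 26.1% and 49.6%. By the same count, single genes that changed sign were Car1 (1.45, clustered alone), Gkn3 (0.028) and Olfm4 (0.35) at resolution 0.5 in crypt-like cells. In B-like cells they were Npm1 (-0.00751, pairs within 1.5-fold) and Agr2 (from -1.39 to 0.37 with 1 library left out, 0.37 without the ileum). Crypt-like levels under the 10% limit or clustered alone, and T-like levels at resolution 0.5, were not run, as a library then lacked the class. Counts and ratios of these classes given for these settings rest on the libraries that still held the class. No paired analysis was possible because each segment has 1 library, so that no segments share replicate numbers to pair; classes within a library were compared with library as a term or as the unit.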

Other observations

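In plasma-, dendritic- and enteroendocrine-like cells, few cells held much of the G2/M RNA. Macrophage-like cells varied by library: 50% of it was spread over 14 of 101 cells in rectum but lay in 2 of 106 cells in colon. In plasma-like cells the G2/M members summed to 72.6, 698.3, 625.1, 223.8 and 371.1 CPM from duodenum to rectum, and in ileum 1 of 32 cells held 528 of the 574 G2/M UMIs. In dendritic-like cells the sums were 646.0, 828.1, 654.6, 364.9 and 1118, and 4 of 189 duodenal cells held 50% of the G2/M UMIs. Enteroendocrine-like cells, which rarely divide, had 965.2 G2/M CPM in duodenum but 44.4, 188.2, 44.1 and 38.2 in the other libraries.

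Among the genes whose level most resembled that of the 44 members together, over 56 sums of a class in a library and 11958 genes, were Hmgb2 (Pearson correlation 0.919), Stmn1 (0.904), Ran (0.897), Kif20b (0.896), Ncapg (0.893), H2afx (0.884), Shcbp1 (0.880), Kif15 (0.878) and Dlgap5 (0.878). The sums share libraries and differ in depth, and the correlations are given as a description.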
